A study of Mus musculus with 10 samples.

Results

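Trophoblast lineage genes, a set of 10 genes that mark or direct the formation of placental cells, were followed in mouse teratomas that carried different forms of the human tumour suppressor VHL. The set was given by name (Tpbpa, Rhox9, Rhox6, Ascl2, Gcm1, Hand1, Elf5, Prl3d1, Tfap2c and Plac1), and a gene was measured where a probe set was annotated to that gene and no other. Of the 10 genes, 8 were measured, out of 18820 genes measured in all, and each of the 8 had a single probe set. Gcm1, which drives syncytiotrophoblast formation, and Prl3d1, a placental lactogen of trophoblast giant cells, had no such probe set and were not analysed here.

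Trophoblast is the outer lineage of the blastocyst, and it builds the placenta. In the mouse, trophoblast stem cells are kept by factors such as TFAP2C and ELF5. They give rise to giant cells under HAND1, to the spongiotrophoblast layer under ASCL2, with Tpbpa as its classical marker, and to the syncytial cells of the labyrinth. Embryonic stem cells enter this lineage only rarely. Several of its genes are also used elsewhere: TFAP2C and the RHOX homeobox proteins in germ cells, HAND1 in the heart, ASCL2 in intestinal stem cells and ELF5 in mammary and other glandular epithelium.

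All 10 teratomas came from Vhl-/- mouse embryonic stem cells of the J1 line (strain Sv/129) that expressed a human VHL cDNA, and all grew under the skin of female nude (nu/nu) mice. There were 3 tumours with the wildtype cDNA, 3 with R167Q and 4 with P81S, each on its own array, and the labels call the P81S tumours apoptosis-resistant and the others apoptotic. The design text assigns the P81S arrays to 2 clones with 2 arrays each, without saying which arrays share a clone. The promoter of the cDNA, the number of clones behind the other groups and the age of the hosts are not given in the sources used here. The arrays are titled biological replicates, but whether they stem from different cultures or hosts is not stated, so p-values measure only the spread between these tumours. Where a genotype rests on few clones, a clone's own traits cannot be told apart from the genotype.

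Values are log2 expression on a common scale, with array medians of 6.97 to 7.11, so a difference of 1 is a doubling of a gene's share of the signal. A run of 6616 unannotated probe sets at the start of the array was taken here as its control block. The block's median over all arrays, 5.98 log2, is a rough mark of dim signal and not a measured background. Its median in single arrays was 5.395 to 6.24 log2, and the pooled 5.98 was used throughout. A reading somewhat under 5.98 may therefore lie above the block median of its own array. The mean of 3 Y-linked genes (Eif2s3y, Kdm5d and Uty) was 4.26 to 4.70 log2 in the wildtype arrays, against 9.12 to 9.52 in R167Q and 8.42 to 9.28 in P81S, although the J1 donor line is male. The wildtype arrays therefore stand apart in a way their labels do not state, and its part in the results below was not tested. The difference of P81S from R167Q does not use their levels, but its p-values use their spread, which the fit pools over the 3 groups. With only P81S and R167Q in the fit, 4 of the 8 measured trophoblast genes were called, the same 4 as in the full fit, with adjusted p (limma) of 0.0039 to 0.00662. That fit called 1484 of 18820 genes lower and 1910 higher. Xist, the RNA of an inactive X, which the cells of the female hosts carry, was 7.0 to 8.06 in wildtype, 7.98 to 8.57 in R167Q and 6.79 to 8.10 in P81S. Host and donor RNA were not separated, so the source of this signal is not known. P81S replicate 1 also stood apart, with a mean of 10.13 log2 over 12 epithelial genes against 7.26 to 8.12 in the other P81S arrays.

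Trophoblast lineage genes were lower in P81S than in wildtype teratomas. Of the 8 measured, 7 fell and 0 rose in P81S (limma, adjusted p under 0.05 over all genes), where 17.5% of all 18820 genes were called lower and 17.2% higher. The X-linked homeobox gene Rhox9 changed most, 11.3-fold, followed by the spongiotrophoblast marker Tpbpa (4.61-fold), the stem cell factor gene Tfap2c (3.99-fold) and Rhox6 (3.17-fold). Plac1, Hand1 and Ascl2 fell 2.28-fold, 1.68-fold and 1.42-fold, and Elf5 did not pass. In P81S against R167Q, Rhox9, Tpbpa, Tfap2c and Rhox6 fell too, which is 4 of 8 against a background of 10.1% lower and 12.4% higher. The arrays of P81S and wildtype did not overlap for 7 of the 8 genes (40.6% of all genes), and those of P81S and R167Q for 4 (30.7% of all genes). The comparisons share the P81S arrays. The median log2 difference of the 8 genes was -1.43 in P81S against wildtype and -1.01 in P81S against R167Q, where all genes had medians of 0.02 and 0.02. In a teratoma, fewer cells of a type and less RNA per cell cannot be told apart.

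**Figure D1:**
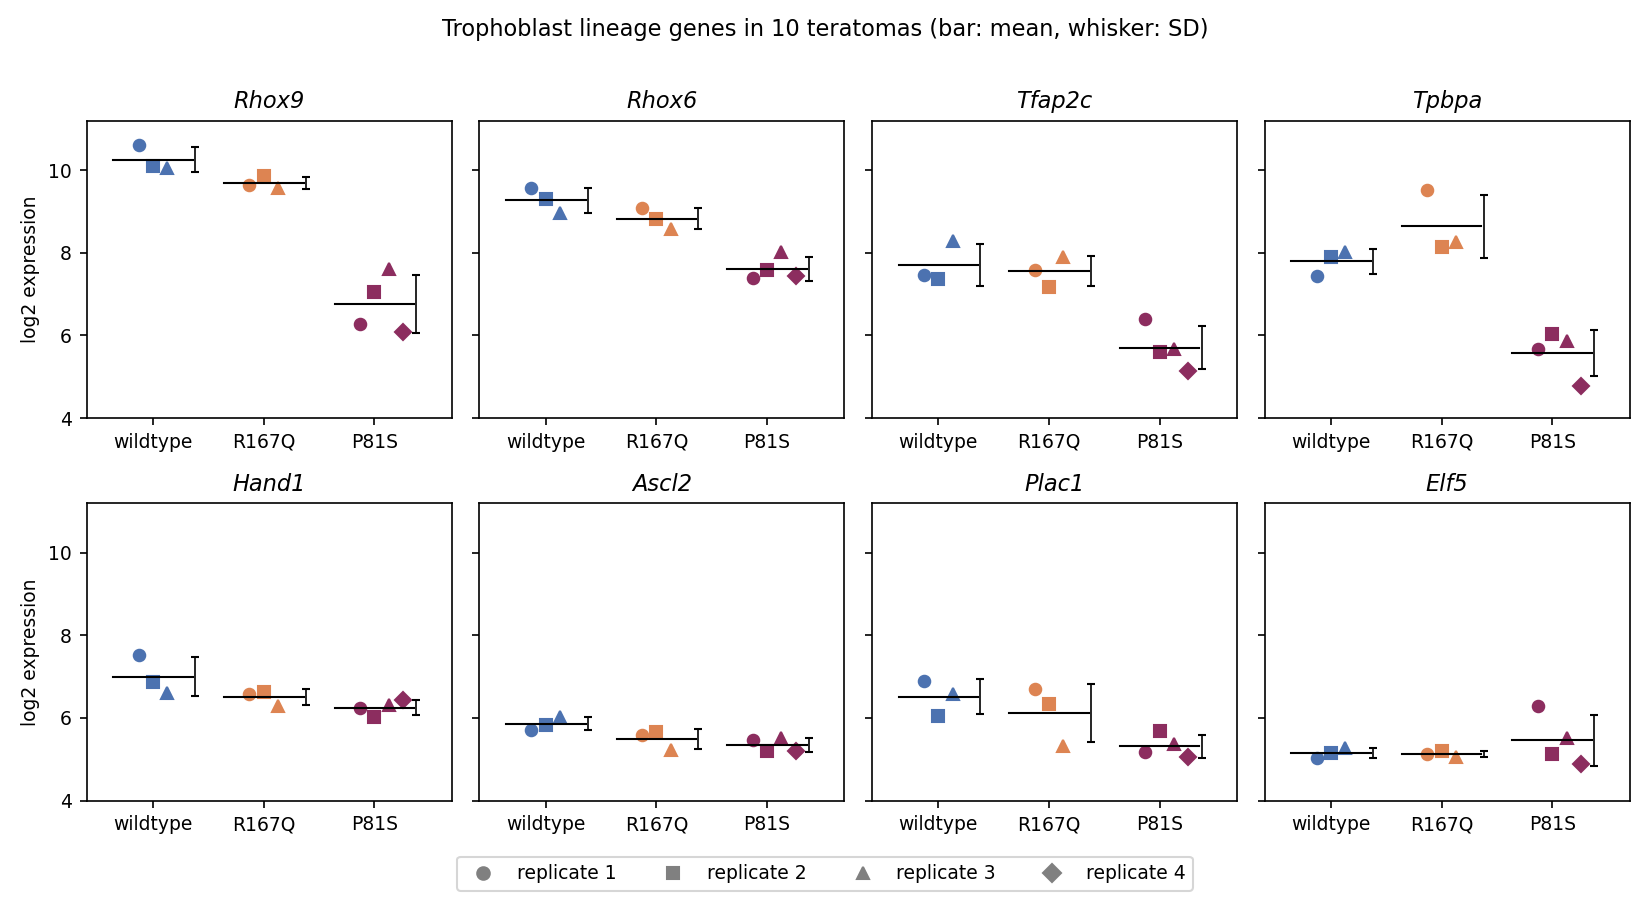
Log2 expression of the 8 measured trophoblast lineage genes (vertical axis) in each wildtype, R167Q and P81S array; symbols are replicate numbers, horizontal bars group means and whiskers SDs. For 7 genes the P81S arrays lie below the wildtype arrays, most for Rhox9, while the Elf5 arrays overlap.

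The stem cell factor gene Tfap2c encodes the transcription factor AP-2 gamma, which maintains trophoblast stem cells and also acts in primordial germ cells. It read 7.46, 7.36 and 8.29 log2 in wildtype replicates 1 to 3, 7.59, 7.17 and 7.90 in R167Q replicates 1 to 3, and 6.41, 5.59, 5.67 and 5.15 in P81S replicates 1 to 4. Every P81S array lay below every other array, and wildtype and R167Q overlapped. The group means were 7.70 ± 0.51 (SD, n = 3), 7.55 ± 0.36 (SD, n = 3) and 5.70 ± 0.53 log2 (SD, n = 4). The P81S difference was -1.997 ± 0.32 log2 (SE) against wildtype (limma, adjusted p = 0.000666) and -1.85 ± 0.32 against R167Q (limma, adjusted p = 0.00245). In 3 of the 4 P81S arrays Tfap2c lay under the control block's median.

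Elf5, an ETS-family factor of the same stem cells, showed no such pattern. It read 5.04, 5.15 and 5.28 log2 in wildtype, 5.14, 5.20 and 5.06 in R167Q, and 6.30, 5.14, 5.52 and 4.88 in P81S replicates 1 to 4. P81S replicate 1 was the highest of the 10 arrays. Replicate 3 also lay above every wildtype and R167Q array, replicate 4 lay below every one, and replicate 2 lay among them. The difference of P81S from wildtype was 0.30 ± 0.27 log2 (SE; 95% interval -0.30 to 0.90; limma, adjusted p = 0.439), and without P81S replicate 1 it was 0.02. Elf5 was under the control block's median in 9 of 10 arrays. Epithelial genes were high in that same replicate, including the ETS gene Ehf, which lies next to Elf5 on chromosome 2 and read 10.26 log2 there against 6.75 to 8.01 in the other 9 arrays. Of the 12 epithelial genes 0 were called in P81S against wildtype, where 17.5% of all genes were called lower and 17.2% higher. Once P81S replicate 1 was left out, 6 were called lower, beside 3504 of all 18820 genes called lower and 3449 higher. The part of the epithelial genes in the Elf5 values was not tested.

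Hand1 and Ascl2, the basic helix-loop-helix factors of giant cells and spongiotrophoblast, fell by smaller amounts. Hand1 read 7.53, 6.87 and 6.61 log2 in wildtype, 6.59, 6.63 and 6.29 in R167Q, and 6.23, 6.02, 6.31 and 6.44 in P81S. The P81S arrays lay under all wildtype arrays but overlapped R167Q. Its difference in P81S against wildtype was -0.75 ± 0.21 log2 (SE; limma, adjusted p = 0.0184), and the call ended without wildtype replicate 1 (log2 -0.49, limma adjusted p = 0.0722). Hand1 lies on chromosome 11, whose 814 genes above the median of all genes' means had median differences from the wildtype and R167Q means of -0.36 and -0.345 log2 in P81S replicates 1 and 2, against -0.02 in replicates 3 and 4 and -0.07 to 0.04 in the other arrays. Without P81S replicates 1 and 2 the Hand1 difference was -0.63 log2 and did not pass (limma, adjusted p = 0.0831). Against R167Q it was -0.25 ± 0.21 (SE; 95% interval -0.72 to 0.22).

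Ascl2 is expressed from the maternal chromosome in the placenta. It read 5.71, 5.84 and 6.02 log2 in wildtype, 5.60, 5.67 and 5.22 in R167Q, and 5.47, 5.20, 5.52 and 5.19 in P81S. Wildtype arrays were the highest without overlap, and R167Q and P81S overlapped each other. The difference in P81S against wildtype was -0.51 ± 0.16 log2 (SE; limma, adjusted p = 0.0265). The call ended without P81S replicate 2 or 4 or wildtype replicate 2 or 3, at log2 -0.43 to -0.52 and adjusted p (limma) of 0.0609 to 0.103. All P81S and R167Q arrays and 2 of the 3 wildtype arrays were under the control block's median. Against R167Q the difference was -0.15 ± 0.16 (SE; 95% interval -0.50 to 0.19).

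Rhox6 and Rhox9, also known as Psx1 and Psx2, are homeobox genes of the placenta and of germ cells. They belong to the Rhox cluster of the X chromosome, where they lie 69240 bases apart at X:37827055-37829857 and X:37899097-37901770 (GRCm38.p6). Rhox9 read 10.60, 10.10 and 10.06 log2 in wildtype, 9.65, 9.85 and 9.56 in R167Q, and 6.27, 7.05, 7.60 and 6.09 in P81S. No array of the 3 groups overlapped another group, and the P81S arrays were spread over 1.51 log2 against 0.54 in wildtype and 0.29 in R167Q. Rhox9 fell in P81S, with a difference of -3.50 ± 0.32 log2 against wildtype (SE; limma, adjusted p = 4.02e-05) and -2.93 ± 0.32 against R167Q (limma, adjusted p = 0.000521), which is 7.64-fold.

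Rhox6 read 9.56, 9.29 and 8.96 log2 in wildtype, 9.09, 8.82 and 8.57 in R167Q, and 7.40, 7.58, 8.01 and 7.43 in P81S. The P81S arrays again lay below all others. P81S replicate 3 was the highest P81S array for both genes. The P81S difference was -1.67 ± 0.20 log2 against wildtype (SE; limma, adjusted p = 0.000133) and -1.22 ± 0.20 against R167Q (limma, adjusted p = 0.00189). Both genes kept both calls whichever single array was left out.

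The RefSeq table places 33 protein-coding Rhox genes in this cluster, of which 8 were measured, including these and 6 others. Rhox5, which is the next protein-coding gene before Rhox6 at a distance of 18177 bases and was the founding member of the family, read 9.34 to 10.06 log2 in wildtype, 7.57 to 9.15 in R167Q and 5.89 to 6.54 in P81S. It fell by 3.40 ± 0.35 log2 in P81S against wildtype (SE; limma, adjusted p = 7.4e-05). Rhox1, the first of the cluster in this order, fell by 2.46 ± 0.21 (limma, adjusted p = 3.02e-05). Rhox10 had the next smallest p and did not pass (log2 -0.39 ± 0.15, SE; limma, adjusted p = 0.0765). Rhox8, Rhox10, Rhox11 and Rhox12 read under the control block's median in all 10 arrays, between 3.90 and 5.12 log2. Rhox11 and Rhox12 are outside the naming rule. Rhox8 is the next protein-coding gene before Rhox9 and read 4.95 log2 in wildtype and 4.77 in P81S. Of the 8 measured Rhox genes, Rhox1, Rhox5, Rhox6 and Rhox9 fell in P81S against wildtype, where 17.5% of all genes were called lower and 17.2% higher. Rhox8 and Rhox10 to Rhox12 did not pass, and being dim they had little room to fall. The Rhox2, Rhox3 and Rhox4 copies were not analysed here. Probe sequences were not used, so signal shared between family members cannot be separated.

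**Figure D2:**
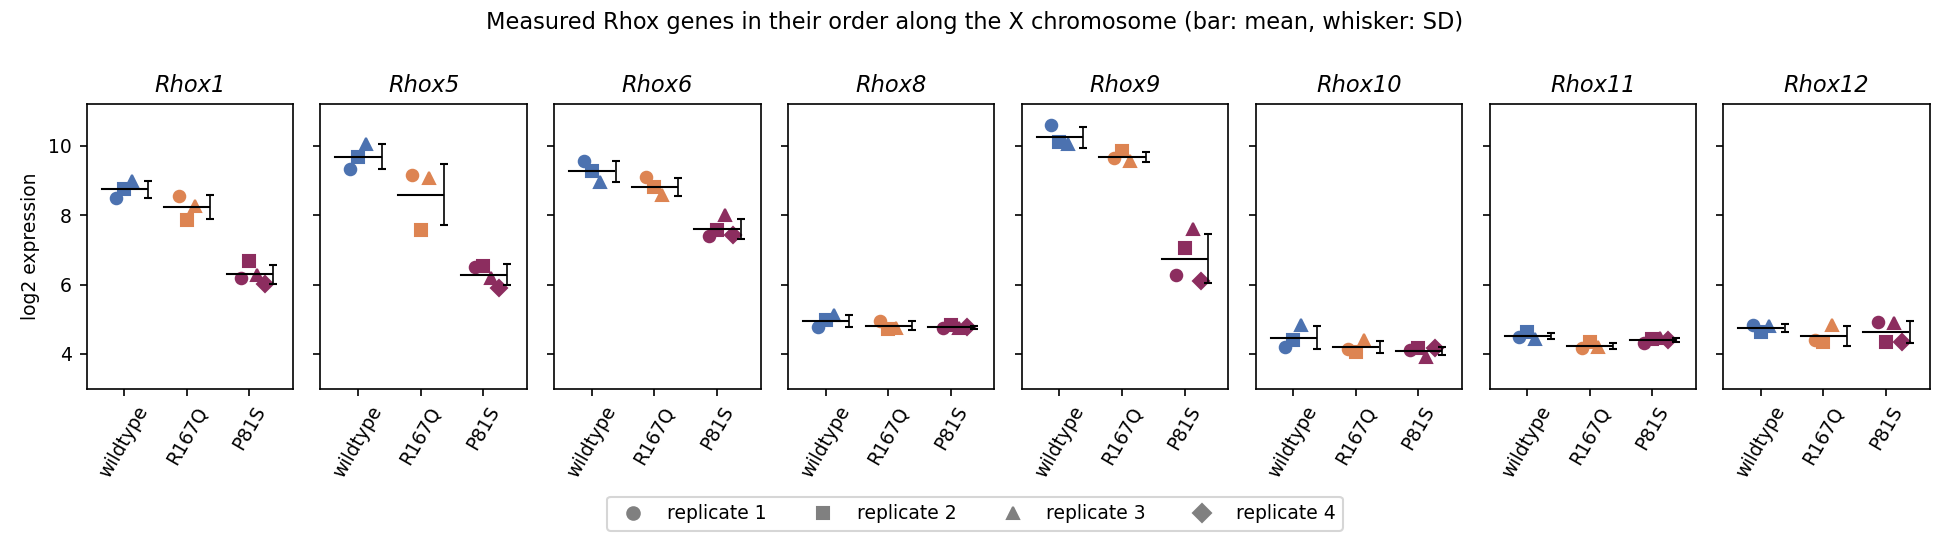
Log2 expression of the 8 measured Rhox genes (vertical axis), drawn in their order along the X chromosome, for each array by group; bars are means and whiskers SDs. Rhox1, Rhox5, Rhox6 and Rhox9 are lower in every P81S array than in every other array, and Rhox8 and Rhox10 to Rhox12 stay under 5.2 log2 in all groups.

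Germ cell and pluripotency genes, whose cells use Tfap2c and Rhox genes too, were lower in the same arrays. Of 14 measured germ cell genes 12 fell and 0 rose in P81S against wildtype, where 17.5% of all genes were called lower and 17.2% higher. Among those that fell were Asz1 (35.6-fold), the synaptonemal complex gene Sycp1 (9.56-fold) and the piRNA helicase gene Mov10l1 (4.88-fold). The mean of the 14 genes was 8.04 to 8.43 log2 in wildtype, 7.68 to 8.02 in R167Q and 5.29 to 6.36 in P81S. Of 17 pluripotency genes 16 fell, beside the same shares of all genes. Dppa3 was 17.1-fold, Dppa4 9.06-fold and Gdf3 6.60-fold lower. The mean of the 17 genes was 9.66 to 10.30 in wildtype, 8.80 to 9.72 in R167Q and 6.40 to 7.83 in P81S. All 17 pluripotency genes and 13 of the 14 germ cell genes exceeded the control block's median in at least 1 array. The P81S readings of Asz1 (4.18 to 5.34 log2) and Sycp1 (4.12 to 5.39) all lay under it, so those fold sizes rest on dim signal in P81S. The part of these cells in the trophoblast gene differences was not tested.

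Tpbpa, trophoblast specific protein alpha, is the marker by which spongiotrophoblast and its precursors are recognised. It lies on chromosome 13 next to a cluster of placental cathepsin genes and has a close paralogue, Tpbpb. Both genes are given with the 250 bases before their start, because these windows are nearly the same in the paralogues: 240 of 252 alignment columns, or 95.2%, were identical. Sequences are from RefSeq (GRCm38.p6), minus strand, 5′ to 3′, at chr13:60941937-60942186 for Tpbpa and chr13:60904848-60905097 for Tpbpb. Capitals mark the match to GCCNNNGGC, the palindrome that AP-2 proteins such as TFAP2C can bind.
Tpbpa: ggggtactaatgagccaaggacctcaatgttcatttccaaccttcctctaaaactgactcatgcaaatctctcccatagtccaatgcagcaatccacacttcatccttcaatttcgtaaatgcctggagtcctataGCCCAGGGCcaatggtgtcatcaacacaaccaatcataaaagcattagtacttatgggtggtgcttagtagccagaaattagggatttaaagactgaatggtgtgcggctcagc
Tpbpb: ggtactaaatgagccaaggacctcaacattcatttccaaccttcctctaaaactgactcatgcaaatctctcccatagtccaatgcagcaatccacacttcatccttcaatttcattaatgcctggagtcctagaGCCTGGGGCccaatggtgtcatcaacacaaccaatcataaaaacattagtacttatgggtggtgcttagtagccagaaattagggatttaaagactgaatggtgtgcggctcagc

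The match begins 114 bases before the start of Tpbpa and 115 before that of Tpbpb. GCCNNNGGC reads the same on both strands as a pattern and occurs in 13.7% of the 32851 upstream windows of this length. CANNTG, the E-box pattern of helix-loop-helix factors such as HAND1 and ASCL2, occurs in 66.2% of them and in neither of these. Upstream windows were at hand for 6 of the 10 listed genes, and GCCNNNGGC was in no window of Ascl2, Elf5, Plac1, Gcm1 or Prl3d1. A match is a string of letters and not a measured binding site.

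Tpbpa was highest in R167Q and lowest in P81S. It read 7.44, 7.91 and 8.02 log2 in wildtype, 9.51, 8.13 and 8.27 in R167Q, and 5.68, 6.03, 5.86 and 4.78 in P81S. The 3 groups did not overlap, and R167Q replicate 1 was the highest array. Tpbpa fell in P81S, with a difference of -2.20 ± 0.37 log2 against wildtype (SE; limma, adjusted p = 0.000938) and -3.06 ± 0.37 against R167Q (limma, adjusted p = 0.000715), which is 8.31-fold. In R167Q against wildtype its difference was 0.85 ± 0.39 (SE; 95% interval -0.02 to 1.72) and did not pass (limma, adjusted p = 0.517). In 3 of the 4 P81S arrays Tpbpa lay under the control block's median.

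Tpbpb followed the same order at lower readings of 4.38, 4.73 and 4.37 log2 in wildtype, 6.24, 5.45 and 5.67 in R167Q, and 3.89, 3.54, 4.03 and 3.41 in P81S. Its groups did not overlap either. It fell by 0.78 ± 0.21 log2 in P81S against wildtype (SE; limma, adjusted p = 0.0136, and 0.0635 without wildtype replicate 2) and was at -2.07 ± 0.21 against R167Q (limma, adjusted p = 0.000437). In R167Q against wildtype the difference was 1.29 ± 0.22 (limma, adjusted p = 0.084). Since probe sequences were not used, signal that the paralogues may share cannot be separated.

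Of the wider spongiotrophoblast, prolactin and cathepsin list, which holds 24 genes besides Tpbpa, 20 were measured and 12 of these read under the control block's median in all 10 arrays. Against wildtype, 3 of the 20 fell in P81S (Tpbpb, Prl7b1 and Prl4a1) and 1 rose. Of all genes, 17.5% were called lower and 17.2% higher. The list gene that rose was the pregnancy-specific glycoprotein gene Psg16, by 0.89 ± 0.15 (SE) log2 (limma, adjusted p = 0.000953). Dim signal touched each of these genes: all Psg16 readings (4.58 to 5.73 log2), all wildtype and P81S readings of Tpbpb, and all P81S readings of Prl7b1 and Prl4a1 lay under the control block's median. The count of falls was 0 without wildtype replicate 2, and 2 to 4 without any other array. Prl7b1, a prolactin-family hormone gene of the placenta, read 5.89, 7.08 and 6.46 log2 in wildtype, 8.05, 7.11 and 7.42 in R167Q, and 4.33, 5.17, 5.76 and 4.13 in P81S. It fell by 1.63 ± 0.41 log2 against wildtype (SE; limma, adjusted p = 0.00972, and 0.0511 without wildtype replicate 2) and was at -2.68 ± 0.41 against R167Q (limma, adjusted p = 0.00149). Prl4a1, named after its values were seen, fell by 0.91 ± 0.30 (limma, adjusted p = 0.0358), a call lost on omission of any single wildtype array or of P81S replicate 1, 2 or 4. Against R167Q, 4 of the 20 fell and 1 rose, where 10.1% of all genes were called lower and 12.4% higher. Falls numbered 2 to 6 with single arrays left out. Prl2a1 and Prl8a9 fell here, at -0.998 ± 0.31 and -0.71 ± 0.19 log2 (limma, adjusted p = 0.0392 and 0.0219), and Psg16 was again higher. All 10 readings of Prl8a9 and all P81S readings of Prl2a1 lay under the control block's median. Prl2a1 and Prl8a9 were named after their values were seen, and without R167Q replicate 1, their highest array, neither passed; the Prl2a1 call also ended without P81S replicate 1 or 2, wildtype replicate 2 or R167Q replicate 3, and the Prl8a9 call without P81S replicate 3 or 4. The list's median difference was -0.175 log2 in P81S against wildtype and 0.18 in R167Q against wildtype.

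**Figure D3:**
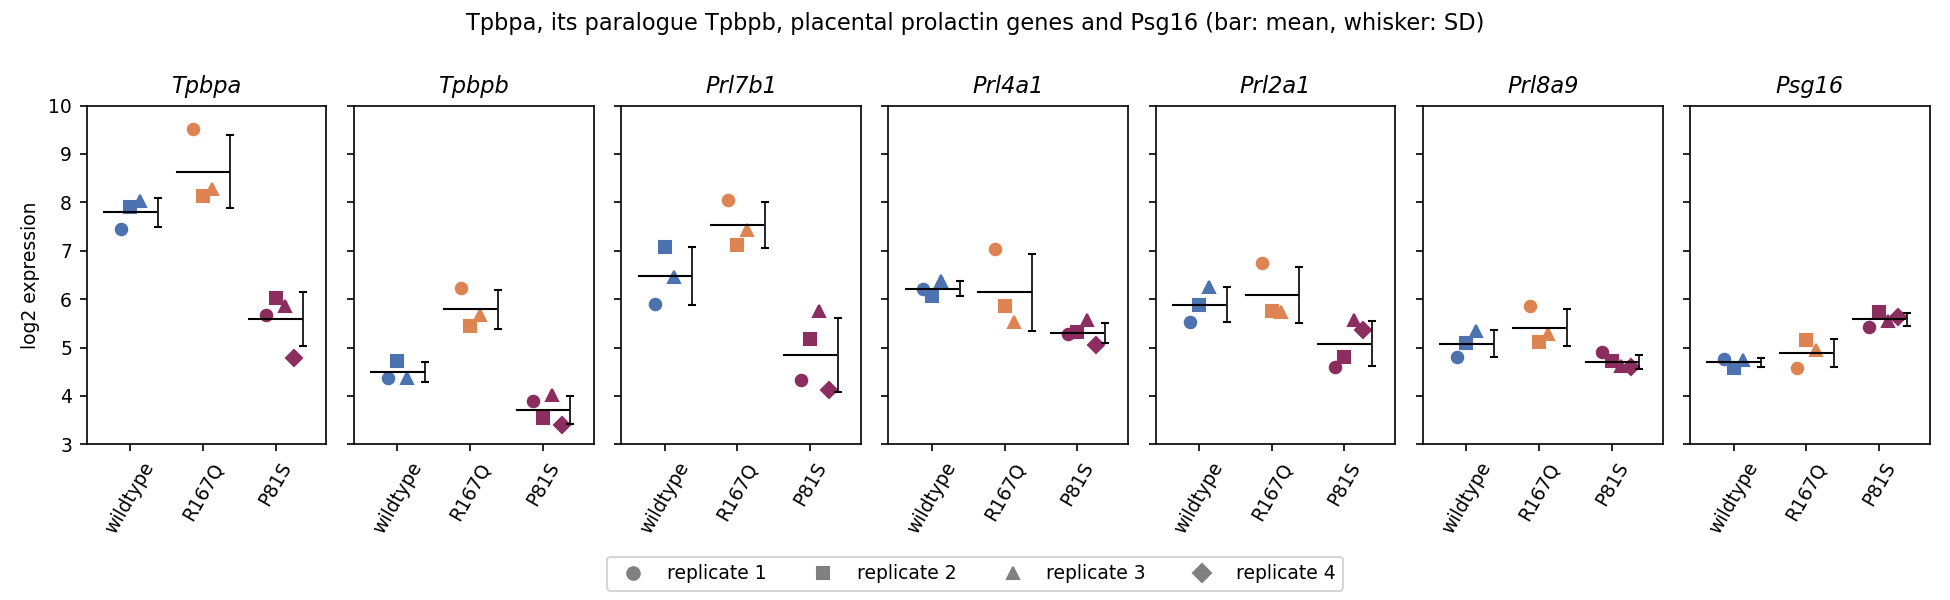
Log2 expression (vertical axis) of Tpbpa, Tpbpb, placental prolactin genes and Psg16 in each array by group; bars are means and whiskers SDs. Tpbpa, Tpbpb and Prl7b1 have their highest means in R167Q (8.64, 5.79 and 7.53 log2) and their lowest in P81S (5.58, 3.72 and 4.85), and Psg16 is highest in P81S.

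Plac1 encodes a membrane-associated protein of trophoblast and is X-linked, at X:53069993-53240110. It read 6.90, 6.06 and 6.58 log2 in wildtype, 6.70, 6.33 and 5.33 in R167Q, and 5.17, 5.69, 5.36 and 5.06 in P81S. The P81S arrays were below all wildtype arrays, and R167Q replicate 3 lay among them. Its difference was -1.19 ± 0.31 log2 in P81S against wildtype (SE; limma, adjusted p = 0.012, and 0.0566 without wildtype replicate 1, at log2 -0.998). Against R167Q the difference was -0.80 ± 0.31 (limma, adjusted p = 0.0911), and without R167Q replicate 3 it was -1.20 and passed (limma, adjusted p = 0.0152). All 4 P81S arrays were under the control block's median.

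R167Q against wildtype gave no call among these genes. None of the 8 passed in R167Q against wildtype (limma, 0 at adjusted p under 0.05 and 0 at an unadjusted p under 0.05), in a comparison that called 0.0903% of all genes and gave 9.73% an unadjusted p under 0.05. The differences were 0.85 for Tpbpa, -0.57 for Rhox9, -0.50 for Hand1, -0.44 for Rhox6, -0.39 for Plac1, -0.36 for Ascl2, -0.15 for Tfap2c and -0.02 log2 for Elf5. Of the 8, 7 were below 0, with a median of -0.37 log2 against -0.02 for all genes, so most genes were below 0 too. The signs of Elf5, Tfap2c and Plac1 changed in some of the alternative settings. R167Q and wildtype arrays were apart for 3 of them, Tpbpa, Rhox9 and Ascl2, where 19.3% of all genes were. The 95% interval was -1.01 to 0.003 for Hand1 and -1.31 to 0.18 for Rhox9, so a p that missed the threshold does not show equal levels. R167Q and P81S each compared with wildtype share the wildtype arrays.

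**Figure D4:**
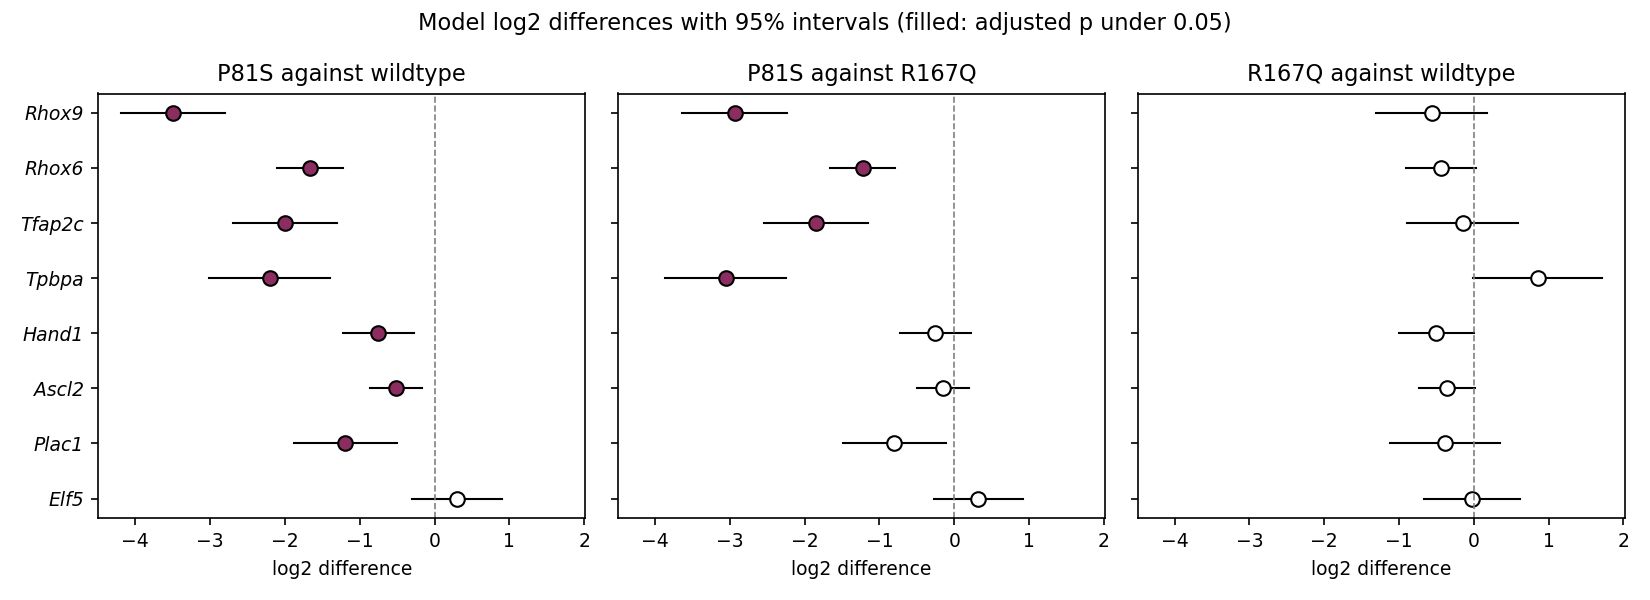
Log2 differences from the model (horizontal axis) with 95% intervals for the 8 genes in the 3 comparisons; filled points have an adjusted p under 0.05. P81S differs from wildtype in 7 genes and from R167Q in 4, and all 8 intervals for R167Q against wildtype include 0.

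Other trophoblast genes, from lists that do not hold the 8, moved less uniformly. Of 9 trophoblast stem cell factors 4 fell and 1 rose in P81S against wildtype, with a median of -0.56 log2. Over all genes, 17.5% were called lower and 17.2% higher. Esrrb, which also belongs to the naive pluripotency network, fell by 2.53 ± 0.34 log2 (SE; limma, adjusted p = 0.000259), and Gata3 fell by 0.80 ± 0.225 (limma, adjusted p = 0.0177, and 0.0848 without wildtype replicate 1). Cdx2 and Tead4, the factors that set the lineage apart in the embryo, were named after their values were seen and fell by 0.49 and 0.56 log2 (limma, adjusted p = 0.047 and 0.0416), and the omission of any of 8 single arrays ended each call. The ETS gene Ets2 rose by 0.90 ± 0.19 (limma, adjusted p = 0.00388). Eomes, outside the naming rule, was at -0.79 ± 0.39 and did not pass (limma, adjusted p = 0.149). Falls numbered 1 without wildtype replicate 1, 2 without P81S replicate 3 or 4, wildtype replicate 3 or R167Q replicate 1 or 3, and 3 to 5 without any other array.

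Among 12 syncytiotrophoblast and labyrinth genes 3 fell and 1 rose, beside the 17.5% of all genes called lower and 17.2% called higher. Gata2, a GATA factor of trophoblast and blood, read 9.60, 9.24 and 8.96 log2 in wildtype, 8.69, 8.74 and 8.50 in R167Q, and 7.67, 7.84, 8.05 and 7.47 in P81S, and it fell by 1.51 ± 0.18 against wildtype (SE; limma, adjusted p = 0.000133). Esx1, an X-linked homeobox gene of the labyrinth, fell by 1.58 ± 0.25 (limma, adjusted p = 0.000605) and so did Slc38a4, an imprinted amino acid transporter gene of the placenta, at -2.47 ± 0.49 (limma, adjusted p = 0.00262). Wnt7b, named after its values were seen, rose by 0.58 ± 0.18 (limma, adjusted p = 0.0306), a call that ended without P81S replicate 1 or 2 or wildtype replicate 2 or 3.

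Imprinted growth genes of the placenta were called in both directions, as were all genes. Of 11 measured, 4 rose and 2 fell in P81S against wildtype, where 17.2% of all genes were called higher and 17.5% lower. Phlda2 fell by 2.32 ± 0.35 log2 (SE; limma, adjusted p = 0.000531) and Cdkn1c was at -1.015 ± 0.25 (limma, adjusted p = 0.00865), also a fall; Cdkn1c was named after its values were seen. Both restrain placental growth, are maternally expressed and share the distal chromosome 7 domain of Ascl2. Grb10 rose by 1.15 ± 0.20 (limma, adjusted p = 0.00121) and Peg3 by 0.45 ± 0.10 (limma, adjusted p = 0.00482). The other rises, Mest (0.34) and Dlk1 (2.10), named after their values were seen, lost their calls on omission of any of 5 and 3 single arrays. Rises numbered 2 without P81S replicate 2 or wildtype replicate 2 or 3, and 3 to 5 without any other single array. Falls numbered 3 without P81S replicate 1, and 2 without any other. Phlda2 read 9.76, 9.06 and 9.04 log2 in wildtype, 9.60, 8.25 and 8.19 in R167Q, and 7.10, 7.45, 6.85 and 6.47 in P81S, so its P81S arrays were below all others.

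**Figure D5:**
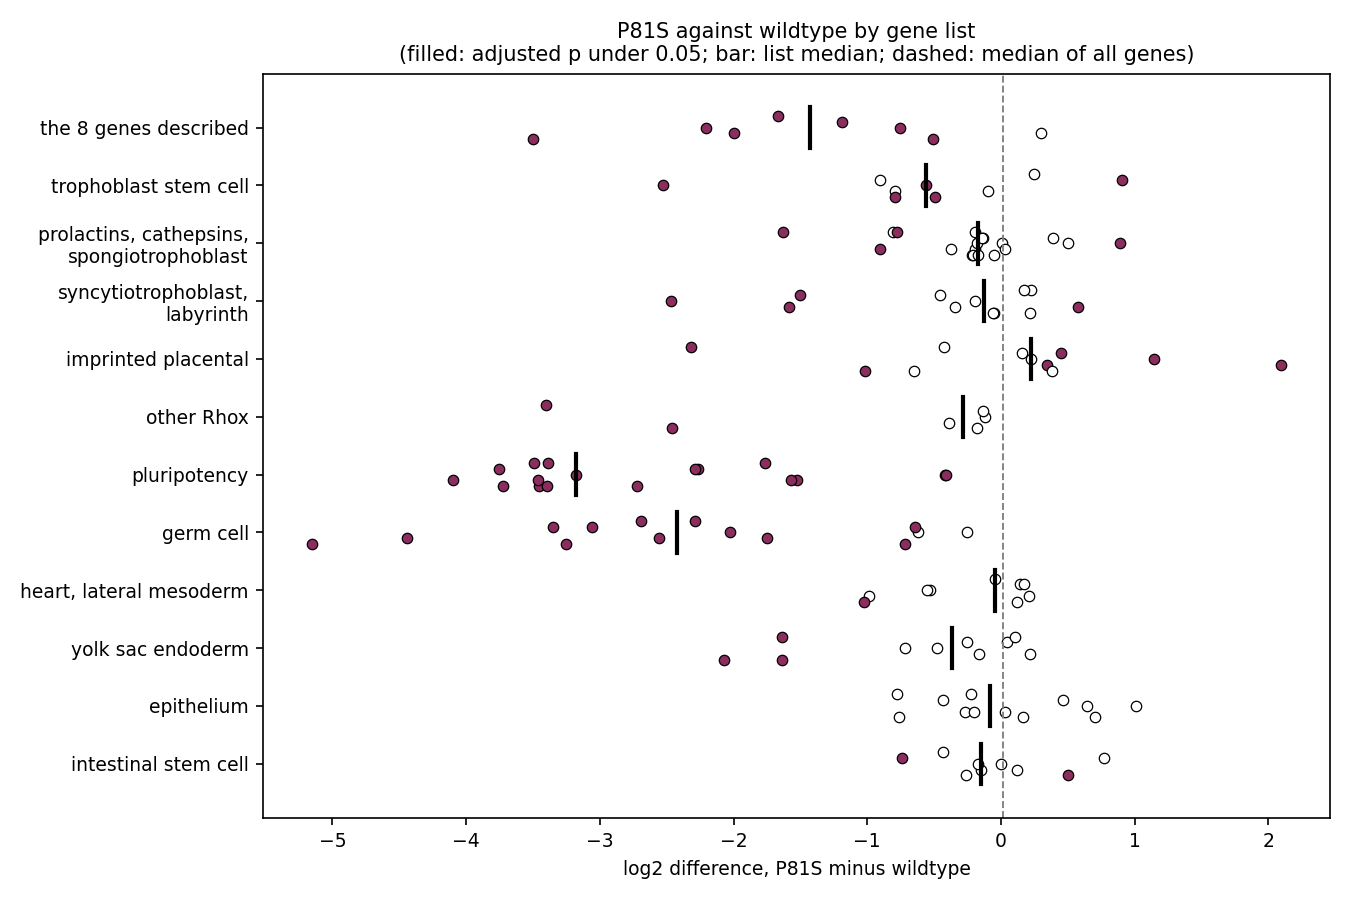
Log2 difference of P81S minus wildtype (horizontal axis) for each measured gene of the trophoblast lists and of lists for other cell types; filled points have an adjusted p under 0.05, black bars are list medians and the dashed line is the median of all genes. The 8 genes described have a median of -1.43, pluripotency genes -3.18 and germ cell genes -2.42, while the other trophoblast lists lie between -0.56 and 0.23.

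Lists for 4 further cell types were set beside the 17.5% of all genes called lower and 17.2% called higher in P81S against wildtype. Without P81S replicate 1, 3504 of all 18820 genes were called lower and 3449 higher. Of 9 heart and lateral mesoderm genes, a lineage that uses Hand1, 1 fell (Myl7, by 1.02 ± 0.17 log2, SE; limma, adjusted p = 0.00101), and Gata4 (-0.99) and Tbx20 (-0.55) did not pass; 3 fell without P81S replicate 1, and 1 without any other single array. Of 9 intestinal stem cell genes, a lineage that uses Ascl2, Znrf3 fell (-0.74) and Sox9 rose (0.50), and Rnf43 did not pass (0.77). The Sox9 call ended without wildtype replicate 2 (limma, adjusted p = 0.0603), which left 0 rises, and 2 genes rose without P81S replicate 4. Intestinal stem cell falls numbered 2 without P81S replicate 1 or 3, and 1 without any other single array. Of 10 yolk sac endoderm genes 3 fell, Fgb by 2.07, Cubn by 1.63 and Afp by 1.64 log2, 5 fell without P81S replicate 1, and 2 or 3 fell without any other single array. The Afp call ended on 5 of these omissions. Of 12 epithelial genes 0 passed (limma, also 0 at an unadjusted p under 0.05; 6 fell without P81S replicate 1), with Ehf at 1.01, Epcam at -0.775 and Cdh1 at -0.76 log2. List means in wildtype, R167Q and P81S ranged over 6.45 to 6.79, 6.45 to 6.52 and 5.98 to 6.83 log2 for heart and mesoderm, 8.10 to 8.17, 8.11 to 8.23 and 7.92 to 8.51 for intestinal stem cells, and 7.72 to 8.35, 7.40 to 7.63 and 6.70 to 8.35 for yolk sac.

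Within P81S, replicate 4 was the lowest array for 6 of the 8 genes, and replicate 1 for Rhox6 and replicate 2 for Hand1. The same replicate 4 had the lowest pluripotency mean (6.40 log2) and germ cell mean (5.29) of the 10 arrays. It was also the lowest of the 10 for every other trophoblast, Rhox and cell type list. Examples are epithelial (7.26) and heart and mesoderm genes (5.98), and the margin was small for intestinal stem cell genes (7.918 against 7.93). Low means in this array were therefore not particular to pluripotency and germ cell genes. The mean of the 8 genes ranged over 5.63 to 6.23 log2 in P81S, 7.03 to 7.49 in R167Q and 7.32 to 7.53 in wildtype. For Rhox9, Rhox6 and Ascl2 the means of P81S replicates 1 and 2 and of replicates 3 and 4 were near each other (6.66 and 6.84, 7.49 and 7.72, and 5.33 and 5.36 log2). Within these pairs Rhox9 lay further apart, at 6.27 and 7.05 in replicates 1 and 2 and 7.60 and 6.09 in replicates 3 and 4. Which arrays share a clone is not stated. Tfap2c was at 6.00 and 5.41 and Tpbpa at 5.85 and 5.32. Without replicates 1 and 2, or without replicates 3 and 4, 5 genes were called lower against wildtype, and Rhox9, Rhox6, Tfap2c and Tpbpa were among them in both cases. Of all 18820 genes, 3511 were called lower without replicates 1 and 2, and 2426 without replicates 3 and 4.

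The genes with the most similar profiles over the 10 arrays were found by the root-mean-square difference between log2 values, each gene centred on its own mean. For Tpbpa, whose own spread by this measure was 1.41, the closest were Prl7b1 (0.44), the germ cell gene Stk31 (0.48) and the zinc finger gene Zfp600 (0.52). For Rhox9 (1.64) they were Trap1a (0.38), a tumour antigen gene of placenta and testis on the X chromosome, Gm9 (0.39), also on the X, and the germ cell gene Mael (0.39). For Rhox6 (0.765) they were Snhg20 (0.18), Gata2 (0.18) and the germ cell gene Dnd1 (0.205). Tfap2c (1.02) was closest to Serpinb9b (0.21), Taf4b (0.23), a germline subunit of the general transcription factor TFIID, and the polarity gene Llgl2 (0.23). Plac1 (0.65) was closest to Snord33, Nt5el and Mc5r (0.25 to 0.28), Hand1 (0.40) to Foxd4, Serpinb9d and Cldn12 (0.145 to 0.17), and Ascl2 (0.27) to Clnk, Lars and Gm5134 (0.11 to 0.12). All 21 genes were lower in P81S than in wildtype, as a close match to a member that fell has to be, so this is a description.

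The next protein-coding genes on the chromosome were compared between P81S and wildtype. Th, the tyrosine hydroxylase gene 66827 bases before Ascl2, was higher in P81S by 1.66 ± 0.27 log2 (SE; limma, adjusted p = 0.000754). It was also higher in R167Q than in wildtype, by 1.94 log2 (limma, adjusted p = 0.044). Tspan32 on the other side was at 0.01. Tpbpa lay between Ctla2a (0.20; limma, adjusted p = 0.815) and the dim cathepsin gene Ctsj (-0.19; limma, adjusted p = 0.231). The neighbours of Tfap2c, Fam209 and Bmp7, and of Hand1, Sap30l and Larp1, did not pass, with differences of -0.01, -0.29, -0.23 and -0.285 log2. Hprt and Fam122b, on the sides of Plac1, fell with it, by 0.475 and 0.81 log2 (limma, adjusted p = 0.00469 and 0.00406). Elf5, which did not pass, lies between Ehf (1.01, not passed) and the catalase gene Cat, which rose by 0.41 ± 0.10 log2 (limma, adjusted p = 0.00682).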

How the data were processed

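Total RNA of 10 frozen teratomas was labelled from an oligo(dT) primer and hybridised to 1-colour Affymetrix arrays, per the labels' protocols. The deposited values are log2 expression per probe set; they were made with RMA and Partek per the submitters' processing notes, and versions and settings are not given in the sources used here. RMA ordinarily sets all arrays to 1 distribution, which removes any change in total RNA. The number of arrays limits the precision. All 10 value columns were used.

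Probe sets (21218 with 1 gene, 1881 with several, 5841 with no gene outside the control block) were named from the platform annotation and RefSeq (GRCm38.p6), and a gene took its probe set with the highest mean. A linear model with 3 group means was fitted over 18820 genes (limma 3.58.1 in R 4.3.3; moderated two-sided tests whose variance prior followed mean expression), with Benjamini-Hochberg adjustment over all genes; the fit was tested on simulated data. Errors beside differences are SEs. Named genes are the listed genes, the 3 of each list with the smallest p in P81S against wildtype, Xist, the Y-linked genes, 3 profile matches per called gene and chromosomal neighbours, which the rule foresaw for gene clusters only and which were given for the other genes too; further genes are marked in the text. Genes and lists were chosen with earlier results of these data known. The alternatives were other normalization, filtering, probe set, variance, group and weight settings, the replicate number or a P81S clone pairing as a block, and omission of arrays.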

Additional observations from a re-analysis of the deposited data

How the results depend on the processing

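The 24 alternatives, run on the 8 genes in 3 comparisons (the dim filter on 5 genes), gave 567 values, of which 548 kept their direction and side of the threshold, 11 lost a call, 1 gained a call and 7 changed sign. Genes called lower in P81S against wildtype numbered 5 to 7 in every alternative, and those in P81S against R167Q 4 or 5. In R167Q against wildtype 0 were called. Of all 18820 genes (14115 with the dim filter), 2426 to 4335 were called lower in P81S against wildtype. In P81S against R167Q, 976 to 2824 were called lower. R167Q against wildtype had 0 to 13 called lower and 5 to 29 higher. Rhox9, Rhox6, Tfap2c and Tpbpa kept both P81S calls under all alternatives. The dim filter left out Ascl2, Elf5 and Plac1. Signs changed only for differences from R167Q to wildtype that did not pass: Elf5 was at 0.001 log2 with quantile normalization and -0.082 to 0.039 with single arrays left out, Tfap2c at 0.011 with array weights and -0.324 to 0.142, and Plac1 at -0.677 to 0.006; the cause was not tested. With the replicate number as a block, 6 genes were called in P81S against wildtype, 4 in P81S against R167Q and 0 in R167Q against wildtype, and Ascl2 lost its call (log2 -0.46, limma adjusted p = 0.116). Under that block 2664 of 18820 genes were called lower in P81S against wildtype and 1237 in P81S against R167Q. No pairing by these numbers was seen: 2 of 9 same-number pairs had correlated deviations above 0.1. Pairs of different number ranged from -0.35 to 0.42. The deviations are from means of 3 or 4 arrays, so this check cannot exclude a pairing. Ascl2, Elf5 and Plac1 are limited by signal near the control block's median.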
